A study of Mus musculus with 6 samples.

Results

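Regulatory T cells (Tregs) act on other cells partly through secreted and surface-tethered mediators, and this report describes 10 such genes: Il10, Ebi3, Il12a, Tgfb1, Lrrc32, Itgb8, Furin, Areg, Fgl2 and Penk. The members were chosen by name from the known biology of Tregs, with earlier results of these data known. Their values were read from every array probe set annotated with that 1 symbol. Probe sets were found for 9 of the 10 members, 84 of the 269751 probe sets in the table. Areg, an epidermal growth factor receptor ligand that Tregs make in tissue repair, had no probe set annotated with its symbol alone, so it has no value here. At gene level 8 members of 13891 tested genes entered the tests, since Il12a lay under the filter on dim genes.

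The KO group was 3 male DJ-1-/- mice and the WT group 3 male DJ-1+/+ littermates, all untreated and 45 weeks of age. Park7 encodes DJ-1. CD4+CD25high cells were sorted from the spleen of each mouse, with 1 Affymetrix Mouse Gene 2.0 ST array per mouse, to ask what the loss of DJ-1 does to Tregs in old animals. How the allele was made, and the strain, were not stated in the labels. The genotype is that of the whole animal, so DJ-1 was absent from the other cells of the KO hosts as well.

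Interleukin 10 is the best known soluble suppressive cytokine, and Ebi3 pairs with the Il12a product to form interleukin 35. Transforming growth factor beta 1 leaves the cell in a latent form. Furin cuts its precursor, GARP (the Lrrc32 product) holds the latent complex on the Treg surface, and the integrin of the alpha v chain and the Itgb8 chain releases the active cytokine. Fgl2 and the enkephalin precursor Penk are further secreted products of Tregs, enriched in activated Treg populations.

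Levels are given as log2(intensity + 16), where the intensity is the deposited probe set value and 16 is an added constant that understates differences of dim probe sets. A gene's value is the median of its probe sets, and a difference is the KO mean minus the WT mean, so negative values mean lower in KO. Adjusted p-values come from limma (Benjamini-Hochberg over all 13891 genes, threshold 0.05, two-sided). Park7 itself was at 5.91 ± 0.18 in KO and 9.48 ± 0.21 in WT (SD, n = 3 each), which checks the genotype labels. The lineage factor Foxp3 lay at 12.73 ± 0.03 in KO and 12.66 ± 0.02 in WT (SD, n = 3 each), and Il2ra (-0.00), Ctla4 (-0.00) and Ikzf2 (-0.20) did not pass either (adjusted p = 0.998, 0.992 and 0.652). KO replicate 1 stood apart: the shift of its median tested gene against the remaining 5 arrays was -0.11 log2 units, where that of each other array lay between -0.01 and 0.07. Differences of members that moved the most when it was left out are given with and without it.

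None of the 8 tested members passed at gene level, although Il10, Fgl2 and Penk lay lower in every KO array than in any WT array. Of all tested genes, 0.266% passed as lower and 0.0072% as higher in KO. At an unadjusted p under 0.05, 3 of the 8 members were lower and 0 higher, where 7.67% of all tested genes were lower and 2.99% higher. Every KO value lay below every WT value in 3 of the 8 members, against 11.3% of all tested genes. The median difference of the 8 members was -0.32, and that of all tested genes was -0.05. The plot of member values by array shows how the 9 measured members fall into those whose groups separate and those whose groups overlap.

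**Figure D1:**
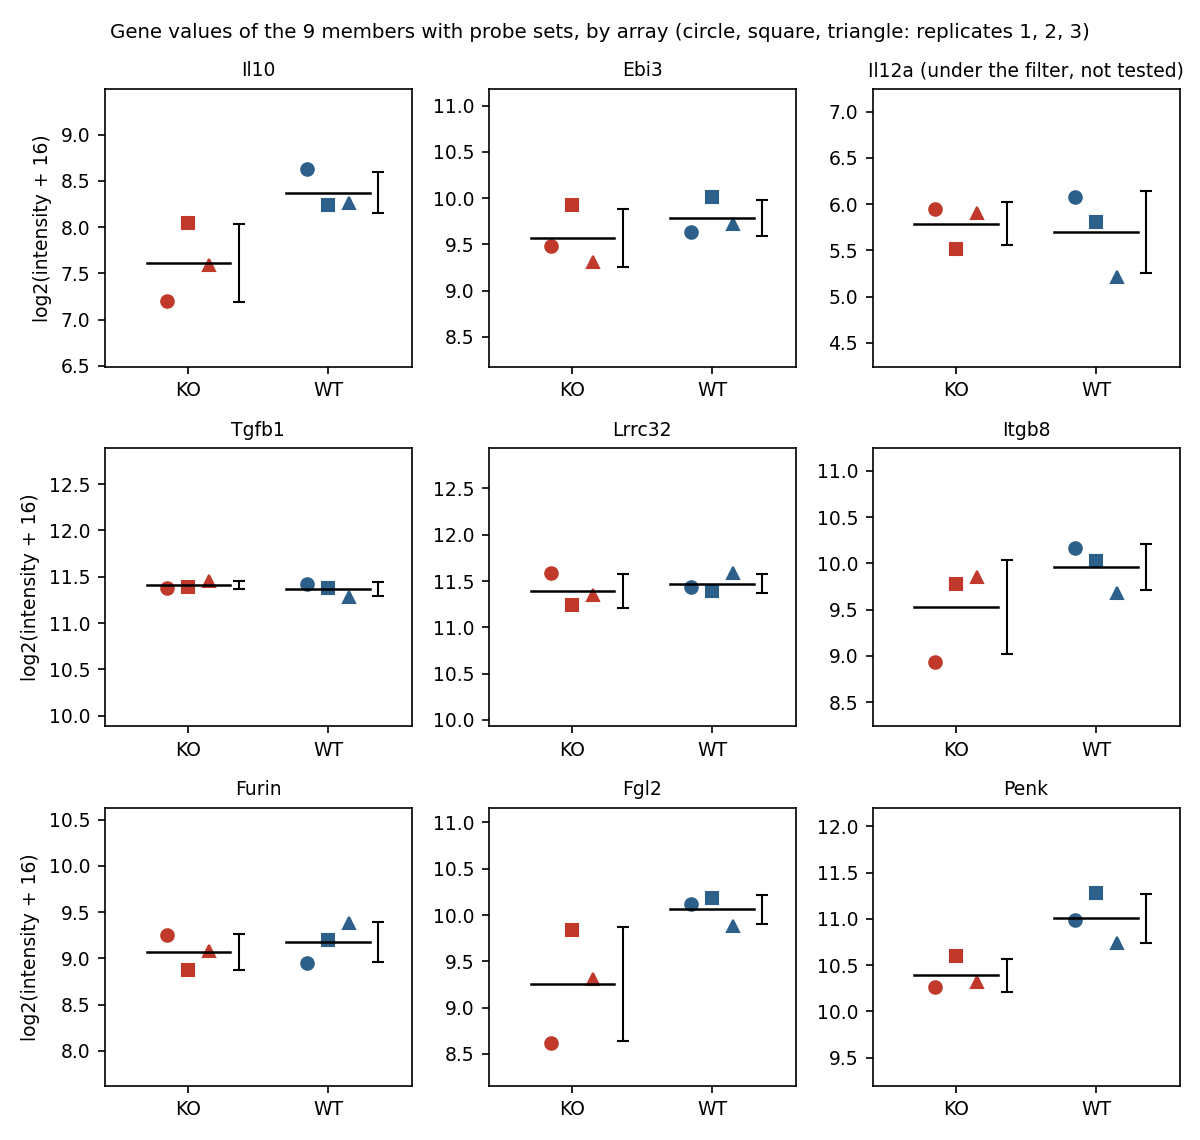
Gene values of the 9 measured members, log2(intensity + 16), in 3 KO (red, left) and 3 WT (blue, right) arrays, with circles, squares and triangles for replicates 1, 2 and 3. Bars give the mean and the error bars 1 SD; every panel spans the same range of log2 units. Il10, Fgl2 and Penk show no overlap of the groups, while Tgfb1 and Lrrc32 lie at like levels in KO and WT.

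Il10 had values of 7.20, 8.04 and 7.59 in KO replicates 1 to 3, against 8.63, 8.24 and 8.26 in WT replicates 1 to 3. The highest KO array lay just under the lowest WT array, and KO replicate 1 was the lowest of the 6. The means were 7.61 ± 0.42 in KO and 8.37 ± 0.22 in WT (SD, n = 3 each), a difference of -0.76 (SE 0.22, 95% interval -1.25 to -0.28). It did not pass (unadjusted p = 0.00587, limma adjusted p = 0.259), and on this scale KO was at 0.589 of WT. Without KO replicate 1 the difference was -0.56 (adjusted p = 0.305), and without KO replicate 2 it was -0.98 (adjusted p = 0.0953).

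All 7 Il10 probe sets were lower in KO, by -0.35 to -1.46, and in 5 of them every KO array lay below every WT array. The lowest difference belonged to 17216996, with intensities of 49.6, 248 and 176 in KO replicates 1 to 3, against 465, 505 and 260 in WT replicates 1 to 3. KO replicate 1 was far below the other 2 KO arrays there, and those also lay under WT. The probe set with the smallest p, 17216994, showed no such low array: its intensities were 211, 262 and 227 in KO replicates 1 to 3 and 380, 378 and 295 in WT replicates 1 to 3. Its difference was -0.55 on the log2 scale (unadjusted p = 0.0159, adjusted p = 0.577 over all probe sets).

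Ebi3, the chain that interleukin 35 and interleukin 27 share, had values of 9.48, 9.92 and 9.31 in KO replicates 1 to 3, against 9.63, 10.01 and 9.72 in WT replicates 1 to 3. The groups overlapped, with the second KO array above 2 of the WT arrays. The difference was -0.22 (SE 0.19, 95% interval -0.63 to 0.20, adjusted p = 0.716), and it ranged between -0.39 without KO replicate 2 and -0.08 without KO replicate 3. Of its 7 probe sets 6 were lower in KO, by -0.21 to -0.51. The 1 exception was 17346076 (0.31), whose number lies apart from the other 6 and whose mean level was under the 40th percentile of all probe sets. The probe set with the smallest p was 17338649 (-0.51, unadjusted p = 0.0730, adjusted p = 0.686). RefSeq places Ebi3 across parts of Zfp119b and Gm16712, and the strand read by each probe set was not used here.

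Il12a, which encodes the p35 chain of interleukins 12 and 35, was the dimmest member at gene level. Its values were 5.94, 5.52 and 5.90 in KO replicates 1 to 3 and 6.08, 5.81 and 5.21 in WT replicates 1 to 3, under the floor of 5.90 on average, so it was not tested among genes. The difference of 0.09 was smaller than the spread within either group, and was 0.01 without KO replicate 1. Of its 9 probe sets 3 reached the 40th percentile of all probe sets (6.20), and differences went both ways, from -0.78 to 0.34. The brightest, 17398221 (mean 9.64), lay far above that level and differed by 0.28 with overlapping arrays (adjusted p = 0.778). The -0.78 belonged to 17398227, a dim probe set (mean 4.67) with the smallest p among the 9 (unadjusted p = 0.0466, adjusted p = 0.653).

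Tgfb1 showed the tightest values of the members, 11.37, 11.39 and 11.46 in KO replicates 1 to 3, against 11.43, 11.38 and 11.28 in WT replicates 1 to 3. The groups overlapped within a narrow range. The difference was 0.04 (SE 0.13, adjusted p = 0.930), with a 95% interval of -0.25 to 0.33. With the mean of probe sets in place of the median, the difference was -0.03. The 9 probe sets split into 5 lower and 4 higher in KO, between -0.28 and 0.11. The smallest p among them belonged to 17475346 (-0.13, unadjusted p = 0.347, adjusted p = 0.824).

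Lrrc32, which encodes the GARP anchor, had values of 11.59, 11.24 and 11.35 in KO replicates 1 to 3, against 11.43, 11.39 and 11.59 in WT replicates 1 to 3. The groups overlapped, with KO replicate 1 and WT replicate 3 at the top and KO replicates 2 and 3 at the bottom. The difference was -0.08 (SE 0.15, 95% interval -0.41 to 0.25, adjusted p = 0.880), and leaving out KO replicate 1 or 2 gave -0.18 or -0.00. Its 3 probe sets lay between -0.10 and 0.10, the smallest p being that of 17480488 (-0.10, unadjusted p = 0.547, adjusted p = 0.893).

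Furin, the convertase that cuts the cytokine precursor, had values of 9.25, 8.88 and 9.08 in KO replicates 1 to 3, against 8.95, 9.20 and 9.39 in WT replicates 1 to 3. The groups overlapped, and the difference was -0.11 (SE 0.16, 95% interval -0.48 to 0.26, adjusted p = 0.838). Leaving out KO replicate 1 or 2 gave -0.20 or -0.02, and leaving out WT replicate 1 or 3 gave -0.23 or -0.01. Of its 20 probe sets 15 were lower and 5 higher in KO. The lowest, 17492600 (-0.41), had the smallest p (unadjusted p = 0.0578, adjusted p = 0.670), with every KO array below every WT array. The highest, 17492616 (0.43), had every KO array above every WT array (adjusted p = 0.675).

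Itgb8 was the 1 member of the latency pathway whose probe sets all leaned the same way. Its gene values were 8.94, 9.78 and 9.85 in KO replicates 1 to 3, against 10.17, 10.02 and 9.68 in WT replicates 1 to 3. KO replicate 1 lay well under all other arrays, and the other 2 KO arrays overlapped with WT. The difference was -0.43 (SE 0.24, 95% interval -0.98 to 0.11, unadjusted p = 0.108, adjusted p = 0.580), and -0.14 without KO replicate 1 (adjusted p = 0.805). With the mean of probe sets it was -0.52 (adjusted p = 0.334). All 18 probe sets were lower in KO, by -0.05 to -0.93, and in 11 of them every KO array lay below every WT array. KO replicate 1 was the lowest KO array in 15 of the 18, by a median of -0.82 against the mean of the other 2 KO arrays. In the probe set with the smallest p that array was no lower than KO replicate 3: 17284845 had intensities of 381, 477 and 379 in KO replicates 1 to 3 and 704, 597 and 567 in WT replicates 1 to 3 (-0.58 on the log2 scale, unadjusted p = 0.0126, adjusted p = 0.567).

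Fgl2, a fibrinogen-like protein that Tregs secrete, had values of 8.61, 9.84 and 9.31 in KO replicates 1 to 3, against 10.12, 10.18 and 9.88 in WT replicates 1 to 3. All KO arrays lay below all WT arrays, although KO replicate 2 came within a small distance of WT replicate 3. The means were 9.25 ± 0.61 in KO and 10.06 ± 0.16 in WT (SD, n = 3 each). The difference of -0.81 (SE 0.27, 95% interval -1.41 to -0.21) did not pass (unadjusted p = 0.0134, adjusted p = 0.314). It was -0.49 without KO replicate 1 (adjusted p = 0.358) and -1.10 without KO replicate 2 (adjusted p = 0.0955). With the mean of probe sets it was -0.45 (adjusted p = 0.161).

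Of the 5 Fgl2 probe sets, 3 carried the difference, with values of -0.61, -0.76 and, for 17435094, -0.81. In every array 17435094 was the middle of the 5, so the Fgl2 gene value and its difference are those of this 1 probe set. The -0.61 belonged to 17435092, whose groups overlapped, whereas 17435093 and 17435094 had every KO array below every WT array. Probe set 17435093 had the smallest p of all 84 member probe sets (unadjusted p = 0.00606, adjusted p = 0.527). Its intensities were 864, 971 and 813 in KO replicates 1 to 3, against 1584, 1745 and 1217 in WT replicates 1 to 3. Here KO replicate 1 was no lower than KO replicate 3. The remaining Fgl2 probe sets were 17435091 (0.05) and the dim 17435090 (-0.13). RefSeq places Fgl2 wholly inside Ccdc146, which has 23 probe sets of its own on this array.

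Penk, the precursor of the enkephalin peptides, had values of 10.26, 10.59 and 10.32 in KO replicates 1 to 3, against 10.99, 11.28 and 10.74 in WT replicates 1 to 3. The groups did not overlap, and KO replicate 1 lay close to KO replicate 3. The means were 10.39 ± 0.18 in KO and 11.00 ± 0.27 in WT (SD, n = 3 each), a difference of -0.61 (SE 0.17, 95% interval -1.002 to -0.23). Penk had the smallest p of the members and did not pass (unadjusted p = 0.00563, adjusted p = 0.254). Leaving out KO replicate 1 gave -0.55. With the mean of probe sets the difference was -0.33 (adjusted p = 0.469).

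That mean included Penk probe sets that went other ways. Of 6 probe sets, 5 were lower in KO, and 3 of these (-0.57, -0.61 and -0.65) had every KO array below every WT array. Probe set 17423036 had the smallest p, with intensities of 1819, 2135 and 1601 in KO replicates 1 to 3 and 2772, 3022 and 2473 in WT replicates 1 to 3 (unadjusted p = 0.0139, adjusted p = 0.571). The others were -0.41 and -0.06 and, for 17423035, 0.33, all with overlapping arrays.

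**Figure D2:**
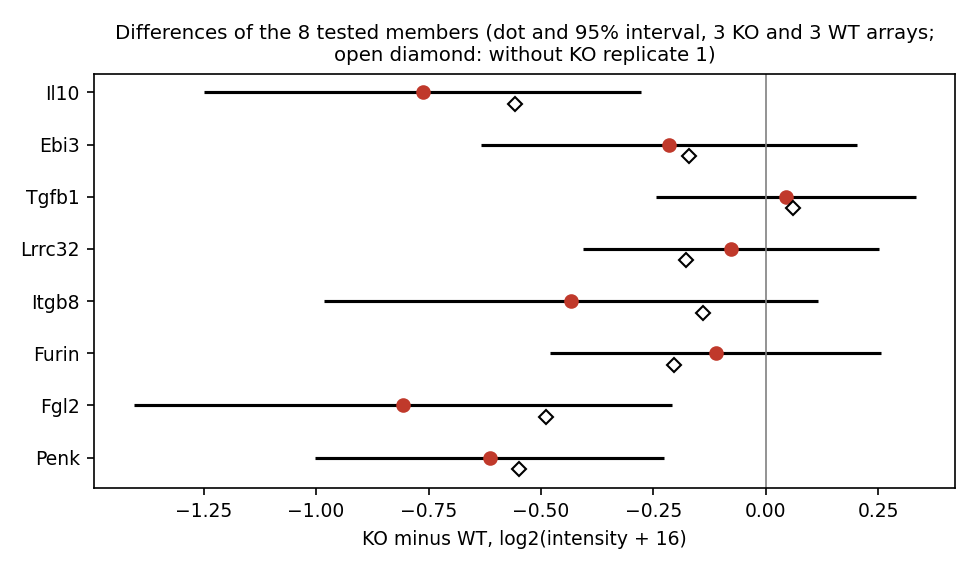
KO minus WT difference of the 8 tested members on the log2(intensity + 16) scale, with the 95% interval of each gene taken alone (3 KO and 3 WT arrays) and, as open diamonds, the difference without KO replicate 1. The intervals of Il10, Fgl2 and Penk lie below 0, and the Itgb8 difference is -0.14 without that array and -0.43 with it.

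Across all 84 member probe sets 67 were lower and 17 higher in KO, with a median difference of -0.19, where 53.0% of all probe sets in the table were lower and the median was -0.02. None of the 84 passed when every probe set was tested, and 0.00111% of all probe sets did. At an unadjusted p under 0.05, 14 of the 84 were lower and 0 higher, where the shares over all probe sets were 4.37% and 3.23%. The 14 belonged to Il10 (4), Itgb8 (3), Fgl2 (3), Penk (3) and Il12a (1). Every KO array lay below every WT array in 27 of the 84 and above in 2, against 7.64% and 6.17% of all probe sets. Probe sets of 1 gene read the same transcripts in the same 6 mice, so these counts are not counts of independent measurements. By gene, separation below WT was most frequent in Itgb8 (11 of 18), Il10 (5 of 7) and Ebi3 (4 of 7), and absent in Tgfb1 and Lrrc32.

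**Figure D3:**
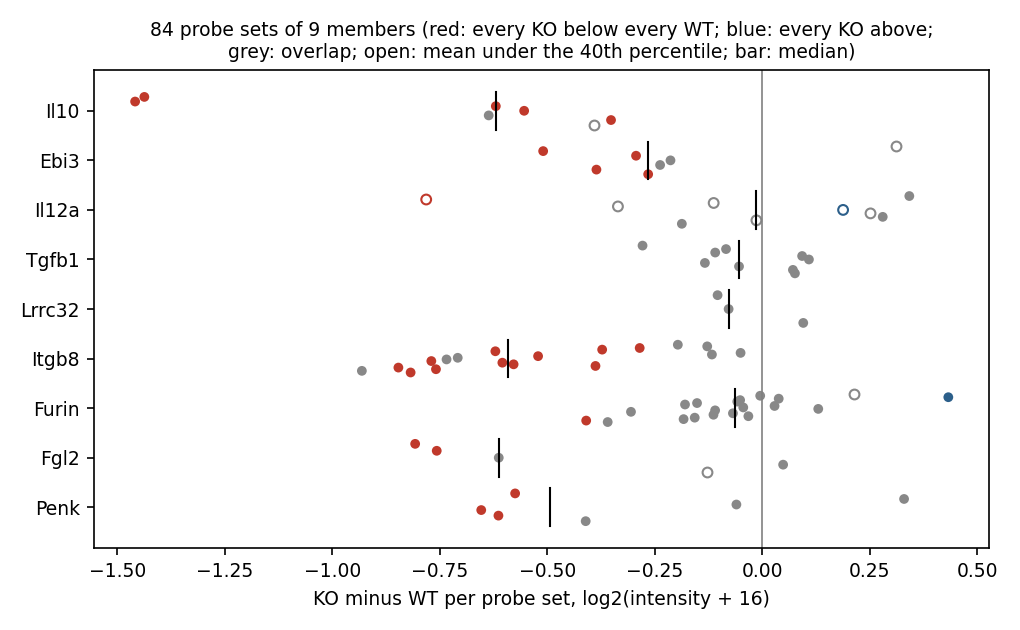
Difference of each of the 84 member probe sets, KO minus WT on the log2(intensity + 16) scale, 1 row of points per gene with its median as a bar. Red points have every KO array below every WT array, blue points every KO array above, grey points overlap, and open points have a mean under the 40th percentile of all probe sets. All points of Il10 and Itgb8 lie left of 0, while those of Tgfb1, Lrrc32 and Furin lie on both sides.

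Promoter windows, 250 bases before to 50 after the gene start, were held in the RefSeq table (GRCm38.p6) for 7 of the 10 members. Il10, Lrrc32 and Penk were not among them. The windows of Fgl2 and Itgb8 are shown because their differences (-0.81 and -0.43) were the most negative among the 7 when gene values are medians of probe sets. Motifs searched on both strands were TGANTCA (AP-1, the type of site that Batf complexes also bind), TGACGTCA (the cyclic AMP response element), TTCNNNGAA (STAT) and TGTTTAC (forkhead), and capitals mark a match. Fgl2 is on the plus strand at chr5:21372423-21372722, and Itgb8 on the minus strand at chr12:119238227-119238526.

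Fgl2: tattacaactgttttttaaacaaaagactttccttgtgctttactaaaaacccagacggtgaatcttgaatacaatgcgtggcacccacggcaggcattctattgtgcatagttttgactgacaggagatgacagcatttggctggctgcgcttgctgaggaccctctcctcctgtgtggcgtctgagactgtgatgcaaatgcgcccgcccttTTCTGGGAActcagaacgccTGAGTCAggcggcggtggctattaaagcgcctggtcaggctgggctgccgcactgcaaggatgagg

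Itgb8: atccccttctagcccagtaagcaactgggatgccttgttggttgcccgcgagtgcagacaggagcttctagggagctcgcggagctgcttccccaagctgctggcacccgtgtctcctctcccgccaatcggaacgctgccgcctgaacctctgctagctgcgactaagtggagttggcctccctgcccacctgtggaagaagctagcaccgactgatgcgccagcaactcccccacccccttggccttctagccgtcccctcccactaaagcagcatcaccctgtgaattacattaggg

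The Fgl2 window held 1 AP-1 motif 16 bases and 1 STAT motif 36 bases before the start, while the Itgb8 window held none of the 4 motifs. Of all 32851 promoter windows of this length 7.81% held the AP-1 letters, 8.30% the STAT letters, 3.65% the forkhead letters and 1.79% the cyclic AMP response element. Among the other members the forkhead letters were found in 1 of the 2 Furin windows and the cyclic AMP response element in that of Areg. These matches describe letters and show no binding.

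The wider pathways of the members were read from lists of partners, regulators, receptors and processing enzymes. The list with the lowest median was that of transcription factors known to act on Il10, where 9 of 9 genes were lower in KO (median -0.58), against 59.65% of all tested genes, and 2 of the 9 passed as lower, against 0.266% of all genes. Of all pathway genes tested outside the members, 2 passed and both were in this list. The lists were chosen with earlier results of these data known, so these counts describe the list and are no test of it. It does not sort the factors by whether they raise or lower Il10.

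Ahr, the aryl hydrocarbon receptor, had values of 8.0003, 8.10 and 8.24 in KO replicates 1 to 3, against 9.03, 9.15 and 9.08 in WT replicates 1 to 3. It fell by 0.97 (SE 0.13, adjusted p = 0.0224), with a wide gap between the groups. Nfil3, a basic leucine zipper factor, had values of 7.59, 7.82 and 7.31 in KO replicates 1 to 3, against 8.69, 8.99 and 8.63 in WT replicates 1 to 3. It fell by 1.19 (SE 0.17, adjusted p = 0.0282). Of the 6 fits that leave out 1 array, Ahr passed without KO replicate 1 alone (adjusted p = 0.0389, up to 0.151 in the others), and Nfil3 passed without KO replicate 1 (0.0448) or KO replicate 2 (0.0344). Neither passed in an unmoderated test of the same model (adjusted p = 0.187 for Ahr and 0.307 for Nfil3), and with the mean of probe sets Nfil3 was at -0.67 and did not pass (adjusted p = 0.0631).

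A further 5 of these factors were lower at an unadjusted p under 0.05 without passing, against 7.67% of all tested genes. They were Batf (-0.74, adjusted p = 0.123), Prdm1, also known as Blimp-1 (-0.92, adjusted p = 0.362), Bhlhe40 (-0.58, adjusted p = 0.391), Irf4 (-0.41, adjusted p = 0.365) and Maf (-0.40, adjusted p = 0.440). These 5 were named after their values were seen. Batf, Irf4 and Maf had every KO array below every WT array, whereas Prdm1 and Bhlhe40 overlapped. Prdm1 also marks plasma cells and is 1 of the 6 genes of that marker list, whose sum was 1716 to 2259 in KO and 2029 to 2856 in WT. In the same list the antibody joining chain Jchain differed by -0.85 (adjusted p = 0.362) and Mzb1 by -0.26 (adjusted p = 0.587), the second with every KO array below every WT array. Xbp1 (-0.20, adjusted p = 0.682) and Sdc1 (0.06, adjusted p = 0.942) overlapped between the groups, and Tnfrsf17 lay under the floor. The part of plasma cells in the Prdm1 value was not tested.

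No gene of the other pathway lists passed. Of the 14 tested partners of the interleukin 10 and 12 families, 6 were lower and 8 higher in KO (median 0.01), with the smallest p for the signal transducer Stat3 (-0.22, adjusted p = 0.598, and -0.13 with the mean of probe sets) and the interleukin 10 receptor chain Il10ra (-0.20, adjusted p = 0.676). Of the 16 tested genes of transforming growth factor beta activation and signalling, 8 were lower and 8 higher (median -0.02). There the isoform Tgfb3 had the smallest p (-0.48, unadjusted p = 0.00497, adjusted p = 0.245), at 5.98 ± 0.07 in KO and 6.46 ± 0.10 in WT (SD, n = 3 each), close to the floor. With the mean of probe sets Tgfb3 differed by -0.03 (adjusted p = 0.934). The coreceptor Tgfbr3 was next (0.34, adjusted p = 0.558), at 0.09 with the mean of probe sets and 0.21 without WT replicate 1.

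In the epidermal growth factor list, to which Areg belongs by family, 6 of 11 genes were tested. Betacellulin, Btc, was higher in every KO array (0.48, unadjusted p = 0.0336, adjusted p = 0.421), and the receptor Erbb3 differed by -0.38 (adjusted p = 0.468). With the mean of probe sets the values were 0.14 for Btc and -0.20 for Erbb3. Btc stood at 0.31 without WT replicate 1, and Erbb3 at -0.24 without WT replicate 3. Both tested genes of the list of Fgl2 relatives and receptors, the Fc receptor genes Fcgr2b (-0.42, adjusted p = 0.478) and Fcgr3 (-0.12, adjusted p = 0.785), lay near the floor. Fcgr2b was at -0.13 with the mean of probe sets, and Fcgr3 at -0.05 without KO replicate 3. Of 10 opioid pathway genes only the delta receptor Oprd1 passed the filter (0.19, adjusted p = 0.725, and 0.06 without KO replicate 1), so the transcripts of the prohormone convertases Pcsk1 and Pcsk2 that process enkephalin precursors were not tested.

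**Figure D4:**
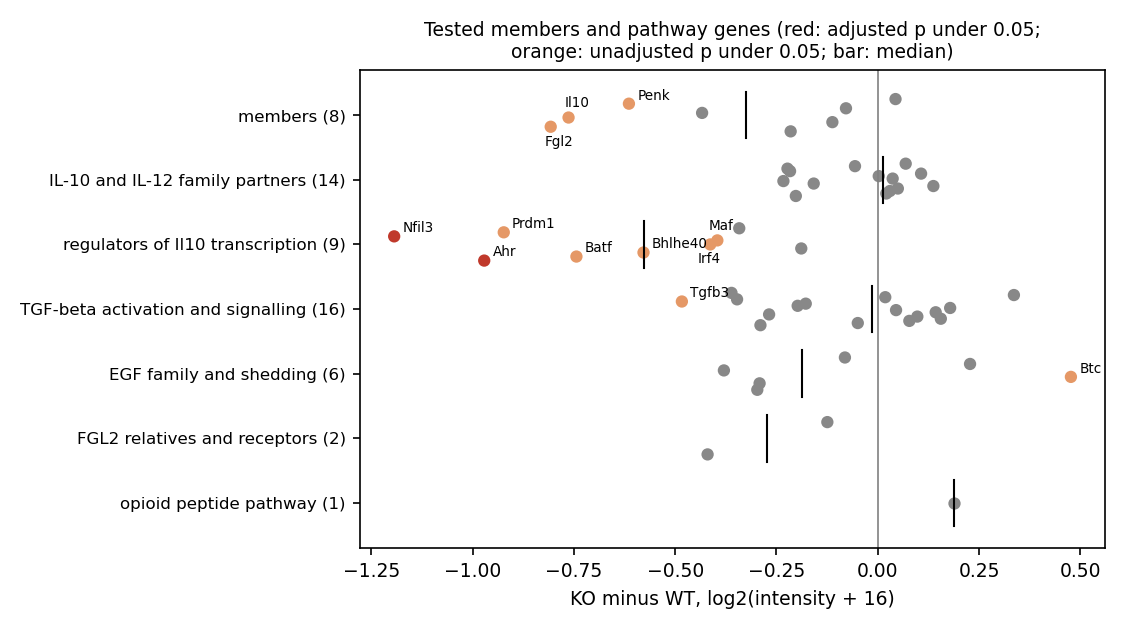
KO minus WT differences on the log2(intensity + 16) scale of the 8 tested members and of the tested genes of 6 pathway lists, with the number tested in brackets and the median as a bar. Red points passed an adjusted p of 0.05 (Ahr and Nfil3), orange points had an unadjusted p under 0.05, and the 9 Il10 regulators all lie left of 0.

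The genes whose pattern over the 6 arrays came closest to the 2 members with the smallest p were found by the root mean square distance between values, each gene centred on its own mean. For Penk, whose own values spread by 0.36 on this measure, they were the laminin chain Lamc1 (0.071), the acyl-CoA synthetase Acsbg1 (0.072) and Ccdc90b (0.072). For Il10, whose values spread by 0.47, they were the mitochondrial outer membrane protein gene Fundc2 (0.065), Itpripl2 (0.090) and the adhesion molecule Alcam (0.098). This likeness is a description over 6 arrays, and it was sought among 13891 genes.

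Summed markers of some other cells moved along with part of these results. The summed intensity of 10 macrophage and monocyte markers was 581 to 730 in KO and 742 to 1157 in WT, with 4 of the 10 genes (Adgre1, Mertk, Lyz2 and Cd14) under the floor in these arrays. All 6 tested genes of this list were lower in KO (median -0.41), against 59.65% of all tested genes. Csf1r (-0.54, adjusted p = 0.318) and C1qc (-0.47, adjusted p = 0.296), both close to the floor, had every KO array below every WT array. C1qa, C1qb and Cd68 overlapped. The summed intensity of 10 NK and cytotoxic markers, several of which activated Tregs also express, was 2075 to 3010 in KO and 3487 to 4734 in WT, with Klrd1 and Gzma under the floor. Of the 8 tested NK and cytotoxic genes, 6 were lower and 2 higher in KO. Ccl5 (-0.98, adjusted p = 0.214), Ncr1 (-0.85, adjusted p = 0.212) and Nkg7 (-0.57, adjusted p = 0.362) were lower in every KO array than in any WT array. Klrb1c was higher in every KO array than in any WT array (0.28, adjusted p = 0.552), and Gzmb (-0.45, adjusted p = 0.528), Eomes (0.03) and Prf1 (-0.01) overlapped. The 6 Treg markers summed to 27758 to 29076 in KO and 29826 to 30034 in WT. Of these Foxp3 was higher in every KO array than in any WT array (0.06, adjusted p = 0.886), and the other 5 had a lower mean in KO. A gene passed in each of the first pair of lists. Gzmk, a granzyme, fell by 2.09 (adjusted p = 0.00208), at 5.99 ± 0.29 in KO and 8.08 ± 0.20 in WT (SD, n = 3 each). Vcam1, an adhesion molecule of splenic macrophages and stroma, fell by 1.15 (adjusted p = 0.0343), at 6.01 ± 0.13 in KO and 7.16 ± 0.30 in WT (SD, n = 3 each). Gzmk, Vcam1 and the other genes named from the macrophage and NK lists were named after their values were seen. The sum of each of these 3 lists lay lower in every KO array than in any WT array. Sums of the B cell, plasma cell, dendritic cell, conventional T cell and neutrophil lists overlapped. The part of other cells in the lower Il10, Fgl2 and Penk values was not tested. In sorted bulk samples, fewer cells making a transcript and less transcript per cell cannot be told apart.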

How the data were processed

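RNA of sorted splenic Tregs was hybridised to 1 array per mouse. The deposited values are intensities per exon-level probe set, on a linear scale, which the authors made with PLIER in Affymetrix Expression Console 1.4, per the labels. The sources used here do not state how background was corrected or arrays were normalized. Median intensities per array were 88.6 to 100.2, and the number of arrays limits the precision.

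Intensities were transformed as log2(intensity + 16) with no further normalization. Of 269751 probe sets 233753 had 1 symbol in the platform annotation, 5106 had several and 30892 none. Gene values were medians of probe sets with 1 symbol. Of 23152 genes, 9261 with a mean under the 40th percentile (5.90) were left out. KO and WT (3 arrays each, groups from the sample titles) were compared by lmFit and eBayes of limma 3.58.1, under R 4.3.3, for 13891 genes and for all probe sets. With 3 arrays against 3, the smallest two-sided p of an exact permutation test is 0.10. The fit was tested on simulated data with independent noise of equal variance in all arrays of a gene. Those data held no array that stood apart as KO replicate 1 did.

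The members and lists were chosen with earlier results of these data known. Named were all members, of each member the probe set with the smallest p and those at the ends of its range, of each pathway list the genes that passed or else the 2 with the smallest p, 5 checks (Park7, Foxp3, Il2ra, Ctla4 and Ikzf2) and the 3 genes nearest in pattern to each of 2 members. Some further marker genes, Il10 regulators and probe sets were named after their values were seen. The alternatives are those of the closing section. Same-numbered KO and WT arrays had deviations from their group means that correlated by 0.15, 0.17 and 0.01 over genes. Those of differently numbered arrays correlated by -0.19 to 0.09. These values do not settle whether the numbers are pairs. The main fit did not take them as pairs, and a fit with the replicate number as a block is among the alternatives.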

Additional observations from a re-analysis of the deposited data

How the results depend on the processing

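The number of members past the threshold was 0 under every alternative run (2 or 3 at an unadjusted p under 0.05), as was that of member probe sets (6 to 22 at an unadjusted p). With the mean of probe sets the 3 members included Itgb8 (limma unadjusted p = 0.0286) and not Penk (0.0745). In the unmoderated test Fgl2 was left out (unadjusted p = 0.0921). Otherwise the 3 were Il10, Fgl2 and Penk. Il10, Fgl2 and Penk were lower in KO under each of the 18 alternatives, with adjusted p-values of 0.0953 to 0.555, 0.0955 to 0.713 and 0.0936 to 0.684. Tgfb1 turned to -0.035 with the mean of probe sets. Over all genes 38 passed (37 lower). The count was 60 with the mean of probe sets, 125 with array weights, 0 with an unmoderated test (1335 at an unadjusted p), 67 with the replicate number as a block and 4 to 37 with 1 array left out (11 without KO replicate 3, and 4, 4 and 7 without WT replicates 1, 2 and 3); with quantile normalization 48 of 55 were lower. The 2 pathway genes became 3 with array weights, 1 with the mean of probe sets, where Nfil3 was at -0.67 (adjusted p = 0.0631), 0 with an unmoderated test (7 at an unadjusted p) and 0 to 2 with 1 array left out. Over all probe sets 3 passed. That count was 79 and 8 with pseudocounts of 1 and 64, 7 with quantile normalization, 10 with median centring, 13 with an intensity trend and robust variances, 6 with an unmoderated test, 15 over brighter probe sets, 0 with the replicate block (20023 at an unadjusted p) and 0 to 2 with 1 array left out. The cause was not tested. A filter at the 60th percentile, no filter and bright probe sets only were also tried. At gene level dim members, Il12a above all, are limited by signal near the floor.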
